A study of Mus musculus with 4 samples.

Results

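The genes described here are 10 genes of the antioxidant program governed by NRF2, taken by symbol as a set of known members of the pathway: Nqo1, Hmox1, Gclc, Gclm, Txnrd1, Srxn1, Gsta4, Gpx2, Slc7a11 and Nfe2l2, the last of which encodes NRF2 itself. They are 10 of the 23282 rows measured, and each had 1 row. All 10 passed the filter on low values, a normalized read count that averages 4 or more over the libraries, as did 15164 rows in all. Expression was measured in the lungs of male CDF1 mice by 3′ mRNA sequencing, which counts reads near the end of each transcript. The normal control E(-)T(-) had neither exercise nor tumor, and the normal exercise group E(+)T(-) ran on a treadmill at high intensity every other day. The cancer control E(-)T(+) and the cancer exercise group E(+)T(+) had been injected through the tail vein with CT26 cells, a colorectal carcinoma line of the mouse, which seeds tumors in the lung, and only the latter also ran. The labels give 10 mice per group and postnatal day 28 for all of them, a day that the methods give as the age at purchase. There was 1 library per group, and the sources do not say outright if its RNA was of a single animal or pooled. The study took calf muscle from a representative mouse of each group and describes the lung analysis as similar. No difference given here therefore has a replicate check, no p-value is given, and every interval covers counting error alone.

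NRF2 is a transcription factor that is made continuously and is as continuously destroyed, because KEAP1 presents it to the CUL3 ubiquitin ligase. Oxidants and electrophiles modify KEAP1, NRF2 then accumulates, pairs with a small MAF protein and binds antioxidant response elements near its target genes, from which BACH1 is displaced. Since this control acts on the protein, the mRNA of Nfe2l2 is a poor guide to NRF2 activity. In the lung the program serves defence against inhaled oxidants, heme and the products of inflammatory cells, and in tumor cells it can be active as well. The RNA here is of whole lung, in which more cells of a type and more RNA per cell cannot be told apart.

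The core of the antioxidant response element is TGACNNNGC, and it was searched on both strands of the RefSeq promoter entries (build GRCm38.p6), each of 300 bases from 250 before to 50 after a start site. Entries were found for 7 of the 10 genes, and those of Hmox1, Gclc and Gsta4 were not among them. The core was present in entries of 4 genes, Gclm, Txnrd1, Nfe2l2 and Srxn1, against 14.0% of the 27025 genes in the table. None of the matches overlapped the AP-1 motif TGANTCA. The windows around these matches are shown because their genes include some of the clearest differences below, with the core in capitals and the gene's own strand written 5′ to 3′. A match is a description of the letters and not a site shown to be bound.
Gclm, chr3:122245383-122245471, plus strand, core 134 bases before the start and read on the opposite strand: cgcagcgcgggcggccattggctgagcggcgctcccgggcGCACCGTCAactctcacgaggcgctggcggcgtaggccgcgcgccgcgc
Txnrd1, chr10:82859074-82859162, plus strand, core 92 bases before the start and read on the opposite strand: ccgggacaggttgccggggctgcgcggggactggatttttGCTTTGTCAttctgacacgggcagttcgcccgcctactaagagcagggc
Nfe2l2, chr2:75704855-75704913, minus strand, core 240 bases before the start and read on the gene's strand: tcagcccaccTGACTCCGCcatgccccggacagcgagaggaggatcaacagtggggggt
Srxn1, chr2:152105542-152105570, plus strand, core 29 bases after the start and read on the opposite strand: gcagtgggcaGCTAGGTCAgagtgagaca
The Txnrd1 entry shown is 1 of 3 for this gene and starts inside the annotated gene, and the other 2 hold no match. By entries, 4 of 9 held the core, against 12.4% of all 32851. The 3 genes with entries but no match, Nqo1, Gpx2 and Slc7a11, lack these letters in this window only.

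The deposited values are log2 of normalized read counts, and the whole reads behind them could be recovered. The libraries were unequal in ways that bear on the values. Recovered reads ranged from 9354570 in E(-)T(+) to 13367971 in E(+)T(+). Hemoglobin genes held 14.33% of the reads in the normal control, 14.17% with exercise alone, 1.43% with tumor alone and 31.43% with both. The deposited values carry scaling factors of 1.086, 1.023, 1.172 and 0.768 in the same order. Relative to library totals alone, the factor of 0.768 raises every gene in E(+)T(+), those of hemoglobin included. In E(-)T(+) all 10 endothelial markers and 14 of 15 alveolar epithelial markers were lower by 2-fold or more than in E(-)T(-), whereas 4 of the 10 fibroblast markers were higher and 4 lower, in a comparison in which 25.7% of all filtered genes were lower and 20.6% higher. No list of tissue markers was absent, but 5 of 9 B cell markers had 0 reads in E(-)T(+). Another measured feature is that 9 genes lacked any read in the normal control but reached 500 normalized counts or more with tumor alone. Each of the 9 had reads with exercise alone as well, amounting to between 0.65% and 2.19% of the level with tumor alone. Subtracting the median of these shares, 1.48%, from E(+)T(-) changed none of the counts of the 10 genes below.

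The main pattern was that 9 of the 10 genes had their highest normalized read count in E(+)T(+), the library of mice with both exercise and tumor, where 22.3% of all filtered genes had theirs. For 6 of them, Nqo1, Gclm, Txnrd1, Srxn1, Gpx2 and Slc7a11, E(+)T(+) exceeded each other library by more than counting error, against 12.4% of all filtered genes. The exception among the 10 was Nfe2l2, which was lowest there. With scaling by library totals alone, 6 of the 10 genes were still highest in E(+)T(+), against 9.79% of all genes. Those 6 were the ones named above, and Hmox1, Gclc and Gsta4 then joined Nfe2l2 with maxima elsewhere. With totals alone the lead was beyond counting error for 3 of the 6, Gclm, Txnrd1 and Srxn1, against 5.31% of all genes. The leads of Nqo1 at 0.29 (-0.19 to 0.79), Slc7a11 at 0.35 (-0.13 to 0.87) and Gpx2 at 0.02 (-0.24 to 0.27) on the log2 scale were within it. Totals without the hemoglobin genes gave the same 6 genes, against 18.4% of all genes. Each of the 6 leads was then beyond counting error, against 10.2% of all genes.

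**Figure D1:**
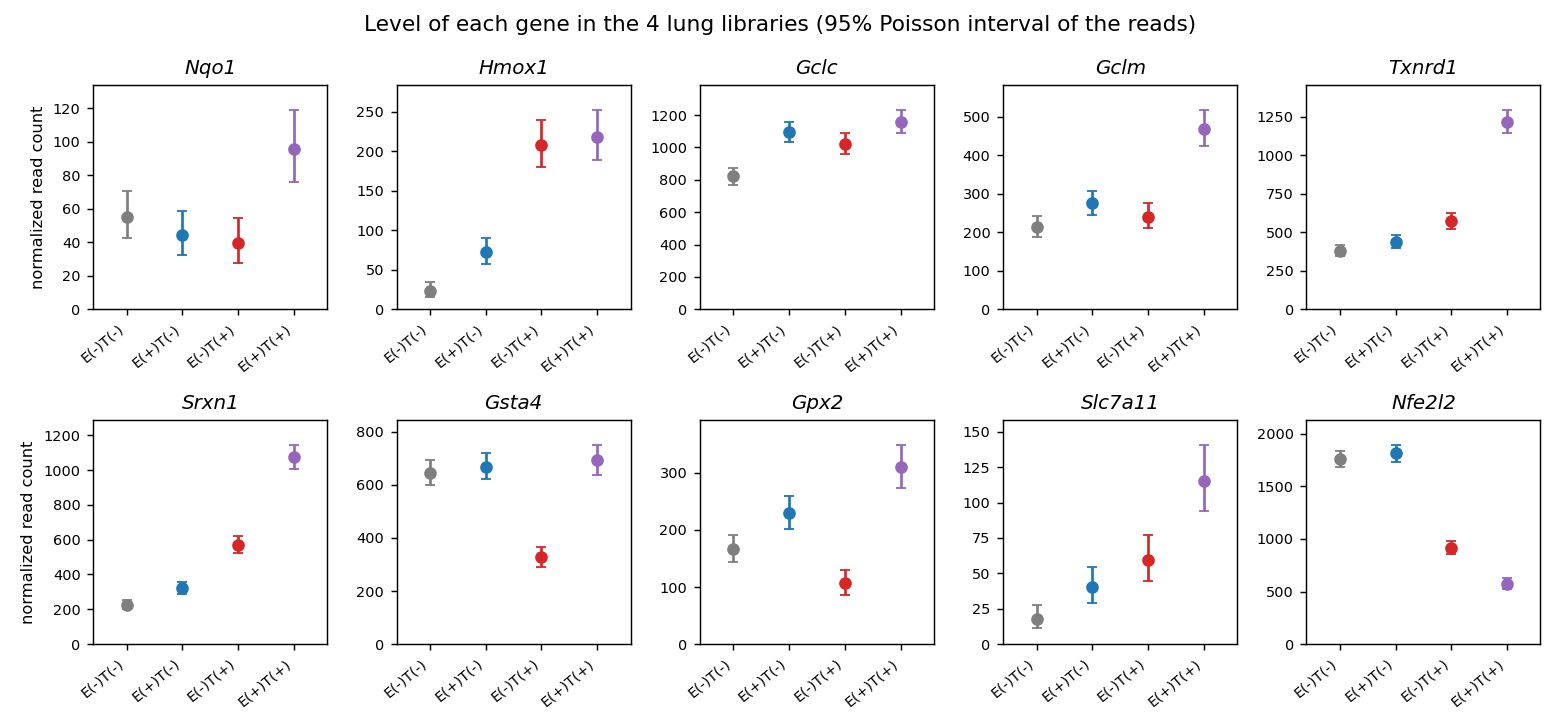
Normalized read count (y axis, linear from 0, a scale of its own in each panel) of the 10 genes in the 4 lung libraries (x axis), 1 library per group, with bars for the 95% exact Poisson interval of the reads. E(+)T(+) is the highest point in 9 panels, and Nfe2l2 goes the other way, from 1756.1 in E(-)T(-) to 571.8 in E(+)T(+).

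Nfe2l2 (chr2:75675513-75704641, minus strand, mm10) had 1756.1 normalized counts in the normal control, 1814.3 with exercise alone, 914.9 with tumor alone and 571.8 with both, from 2067, 1975, 835 and 489 reads. Both libraries without tumor were high and alike, and both with tumor were low. The exercise effect without tumor, the log2 difference of E(+)T(-) relative to E(-)T(-), was 0.05 with a 95% exact (Clopper-Pearson) interval of the read ratio from -0.04 to 0.14. The tumor effect without exercise compares E(-)T(+) with E(-)T(-) and was -0.94 (-1.06 to -0.82). The exercise effect with tumor sets E(+)T(+) against E(-)T(+) and was -0.68 (-0.84 to -0.52). The tumor effect with exercise, of E(+)T(+) relative to E(+)T(-), was -1.66 (-1.81 to -1.52), a 3.17-fold lower level. It was the only one of the 10 genes lower by 2-fold or more in any comparison of the deposited values, and 4.86% of all filtered genes had a more negative tumor effect with exercise.

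Nqo1 encodes a quinone reductase that spares cells the redox cycling of quinones, and is a standard reporter of NRF2 activity. The gene (chr8:107388225-107403206, minus strand) had 55.2 normalized counts in the normal control, 44.1 with exercise alone, 39.5 with tumor alone and 95.7 with both, from 65, 48, 36 and 82 reads. E(+)T(+) stood above the other 3 libraries, whose neighbouring levels did not differ beyond counting error. The exercise effect with tumor was 1.26 (0.70 to 1.89) and the tumor effect with exercise 1.10 (0.59 to 1.67). Either factor alone gave values below 0, -0.32 (-0.89 to 0.24) for exercise and -0.47 (-1.12 to 0.12) for tumor, and both intervals include 0.

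Hmox1 encodes heme oxygenase-1, which opens the heme ring and frees iron, carbon monoxide and biliverdin, and it is held down by BACH1 until heme displaces it. Its level (chr8:75093621-75100589, plus strand) was 23.7 normalized counts in the normal control, 72.5 with exercise alone, 208.1 with tumor alone and 218.5 with both, from 28, 79, 190 and 187 reads. It was lowest in the normal control, intermediate with exercise alone, and high in both libraries with tumor, which did not differ beyond counting error. The tumor effect without exercise was 3.08 (2.55 to 3.76), an 8.47-fold higher level and the largest difference of any of the 10 genes, and 4.06% of all filtered genes had a larger one. The exercise effect without tumor was 1.58 (0.97 to 2.29), exceeded by 2.46% of genes, and the tumor effect with exercise was also 1.58 (1.20 to 1.99). The exercise effect with tumor was 0.07 (-0.23 to 0.37), and it fell to -0.54 when libraries were scaled by totals alone. The 18 macrophage and monocyte markers, cells that handle heme, had a summed level of 17767.3, 18164.5, 26538.3 and 26454.2 normalized counts in the order above, none of them at 0 reads. In the tumor effect without exercise 8 were higher and 3 lower by 2-fold or more, against 20.6% and 25.7% of all filtered genes. Single genes weighed on the sums. Spp1 was at 270.2 in the normal control and 5876.6 with tumor alone, and Chil3 at 1296.0 in the normal control and 9856.5 with both. Lyz2 was lower with tumor alone, at -1.55 on the log2 scale. The part of these cells in the Hmox1 result was not tested.

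Cystine import and glutathione synthesis are covered by 3 of the genes. Slc7a11 encodes the cystine and glutamate exchanger, which brings in the cysteine that limits glutathione. Its level (chr3:49892526-50443614, minus strand) was 17.7 normalized counts in the normal control, 40.4 with exercise alone, 59.2 with tumor alone and 115.5 with both, from 21, 44, 54 and 99 reads. Each factor alone and both together lay above the normal control, and E(+)T(-) and E(-)T(+) did not differ beyond counting error. The exercise effect was 1.14 (0.40 to 2.0) without tumor and 0.95 (0.48 to 1.47) with it. The tumor effect was 1.68 (0.98 to 2.53) without exercise and 1.49 (0.99 to 2.06) with it. These were the fewest reads of the 10 genes in E(-)T(-), and the intervals are correspondingly wide.

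Gclc and Gclm encode the catalytic and the modifier subunit of glutamate-cysteine ligase, the enzyme that makes the first bond of glutathione, and their values moved unequally. Gclc (chr9:77754535-77794485, plus strand) had 821.6, 1095.0, 1022.3 and 1157.5 normalized counts in the normal control, with exercise alone, with tumor alone and with both, from 967, 1192, 933 and 990 reads. Gclm (chr3:122245557-122270732, plus strand) had 213.2, 275.7, 241.0 and 469.8, from 251, 300, 220 and 402 reads. Gclc was lowest in the normal control and did not differ beyond counting error between neighbours among the other 3, whereas Gclm stood apart in E(+)T(+). The exercise effect with tumor was 0.96 (0.72 to 1.21) for Gclm, just under 2-fold, and 0.18 (0.05 to 0.31) for Gclc. The tumor effect with exercise was 0.77 (0.55 to 0.99) for Gclm and 0.08 (-0.04 to 0.20) for Gclc. Scaling by totals alone turned both of these Gclc values negative, the exercise effect being -0.43 and the tumor effect -0.33. Under totals without hemoglobin they were 0.09 and -0.01 in the same order. Without tumor the exercise effects were alike, 0.37 (0.12 to 0.62) for Gclm and 0.41 (0.29 to 0.54) for Gclc. The Gclm gene shares exon bases with Gm17494 on the opposite strand and with the pseudogene Gm6061 on its own strand, and its reads may be split among these. None of the other 9 genes shares exon bases with an overlapping gene in the annotation used.

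Txnrd1 and Srxn1 serve the thioredoxin and peroxiredoxin cycle. Txnrd1 encodes cytosolic thioredoxin reductase, which recharges thioredoxin with NADPH. Its level (chr10:82833951-82897712, plus strand) was 381.4 normalized counts in the normal control, 438.3 with exercise alone, 571.8 with tumor alone and 1216.7 with both, from 449, 477, 522 and 1041 reads. In the deposited values the 4 libraries were separate from one another beyond counting error, with E(+)T(+) far above the rest. The step from the normal control to exercise alone only just cleared it. That step was 0.11 on the log2 scale under totals alone and under totals without hemoglobin, against 0.20 as deposited. The exercise effect was 0.20 (0.01 to 0.39) without tumor and 1.09 (0.94 to 1.24) with it, and the tumor effect was 0.58 (0.40 to 0.77) without exercise and 1.47 (1.32 to 1.63) with it.

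Srxn1 encodes sulfiredoxin, which repairs peroxiredoxins that hydrogen peroxide has overoxidized. Its level (chr2:152105516-152111376, plus strand) was 225.9 normalized counts in the normal control, 319.7 with exercise alone, 569.9 with tumor alone and 1073.9 with both, from 266, 348, 520 and 919 reads. It stepped up in the same order as Txnrd1, and each step was beyond counting error. The tumor effect was 1.33 (1.12 to 1.55) without exercise and 1.75 (1.57 to 1.93) with it, the latter a 3.35-fold higher level. The exercise effect was 0.50 (0.27 to 0.74) without tumor and 0.91 (0.76 to 1.07) with it.

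Gsta4 and Gpx2 encode enzymes that spend glutathione, and in both the lowest library was the cancer control. Gsta4, a glutathione transferase that clears the lipid peroxidation product 4-hydroxynonenal (chr9:78182774-78209349, plus strand), had 645.7 normalized counts in the normal control, 668.1 with exercise alone, 326.6 with tumor alone and 693.1 with both, from 760, 727, 298 and 593 reads. Its 3 other libraries did not differ beyond counting error between neighbours. The tumor effect without exercise was -0.98 (-1.18 to -0.79) and the exercise effect with tumor 1.08 (0.88 to 1.29). The exercise effect without tumor, 0.05 (-0.10 to 0.20), and the tumor effect with exercise, 0.05 (-0.10 to 0.21), were near 0 and changed sign when libraries were scaled by totals alone or by totals without hemoglobin.

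Gpx2 encodes a glutathione peroxidase of epithelia (chr12:76792333-76795554, minus strand). It had 166.5 normalized counts in the normal control, 229.7 with exercise alone, 106.3 with tumor alone and 309.6 with both, from 196, 250, 97 and 265 reads. In the deposited values all 4 levels were separate beyond counting error, with both exercise libraries above both libraries without exercise. The exercise effect with tumor, 1.53 (1.20 to 1.89), was the largest of the 10 genes in that comparison, and the exercise effect without tumor was 0.46 (0.19 to 0.74). The tumor effect was -0.64 (-1.01 to -0.29) without exercise and 0.43 (0.18 to 0.69) with it. The summed levels of 2 lists of epithelial markers were also lowest with tumor alone, though not every marker was. The 12 airway secretory and club cell markers summed to 569313.2, 666844.7, 201162.7 and 671080.3 normalized counts in the normal control, with exercise alone, with tumor alone and with both. A single gene, Scgb1a1, held 428518.1, 520665.5, 117068.0 and 526837.0 of these sums. The 15 alveolar markers summed to 246637.3, 293888.6, 37251.5 and 196660.1 in the same order. No marker of either list was at 0 reads, and in the tumor effect without exercise 6 of the 12 airway markers were lower and 4 higher by 2-fold or more, against 25.7% and 20.6% of all filtered genes. The part of epithelial cell number in the Gsta4 and Gpx2 values was not tested.

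The first comparison addressed what exercise changed in lungs without tumor. Of the 10 genes 2, Hmox1 and Slc7a11, were higher in E(+)T(-) by 2-fold or more and none was lower, where 5.28% of all filtered genes were higher and 4.7% lower. The median log2 difference of the 10 genes was 0.39, against 0.00 for all filtered genes. Nqo1 alone had a value below 0 in the deposited values, and those of Gsta4 and Nfe2l2 near 0 turned negative under totals alone and under totals without hemoglobin.

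The second comparison addressed the tumor in mice without exercise. Here 3 genes, Hmox1, Srxn1 and Slc7a11, were higher in E(-)T(+) by 2-fold or more and none was lower, against 20.6% of all filtered genes higher and 25.7% lower, so the share of higher genes was near the background. The 10 genes spread widely, with a median of 0.25 against -0.03 for all genes. Nqo1, Gsta4, Gpx2 and Nfe2l2 had values below 0, and those of Gsta4 and Nfe2l2 were just short of 2-fold. They passed it, at -1.07 and -1.03, when libraries were scaled by totals without hemoglobin.

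The third comparison addressed exercise in mice with tumor. In E(+)T(+) 4 genes, Nqo1, Txnrd1, Gsta4 and Gpx2, were higher than in E(-)T(+) by 2-fold or more and none was lower, against 24.3% of all filtered genes higher and 17.7% lower. For 10 genes this count is not far from the background share. A further 3, Gclm, Srxn1 and Slc7a11, lay between 0.91 and 0.96. The median of the 10 genes was 0.96, against 0.01 for all genes. This is the comparison that depended most on the scaling. With library totals alone the median of all genes moved to -0.59 and that of the 10 genes to 0.35. None of the 10 was then higher by 2-fold, against 16.4% of all genes. Nfe2l2, at -1.29, was lower by that much, as were 35.4% of all genes. With totals without hemoglobin 3 genes were higher by 2-fold, against 23.3% of all genes, and Gsta4 was just short of it.

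The last comparison addressed the tumor in exercised mice. In it 5 genes, Nqo1, Hmox1, Txnrd1, Srxn1 and Slc7a11, were higher in E(+)T(+) than in E(+)T(-) by 2-fold or more and 1, Nfe2l2, was lower, against 14.9% of all filtered genes higher and 13.0% lower, so that the share of higher genes exceeded the background. The median was 0.93, against 0.00 for all genes. Under totals alone 4 genes were higher, Nqo1 having dropped to 0.70, and 1 was lower, against 9.5% and 24.2% of all genes. The median of all genes was then -0.41. These last 2 comparisons share the E(+)T(+) library and are not independent of each other.

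**Figure D2:**
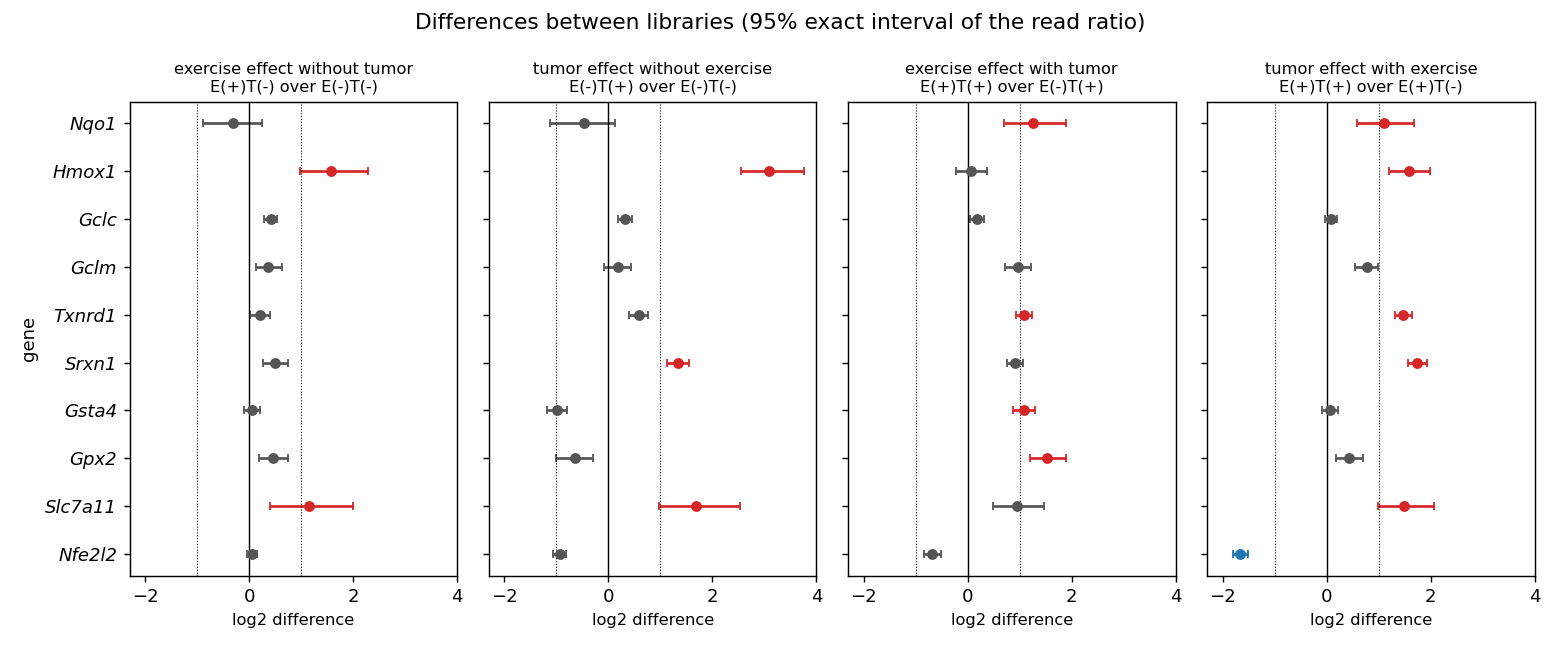
Log2 difference of the deposited values (x axis) of each gene (y axis) in the 4 comparisons, 1 panel each, with bars for the 95% exact interval of the read ratio and dotted lines at 2-fold. Red marks genes higher and blue genes lower by 2-fold or more: 2 red points in the exercise effect without tumor, 3 in the tumor effect without exercise, 4 in the exercise effect with tumor, and 5 red and 1 blue in the tumor effect with exercise.

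**Figure D3:**
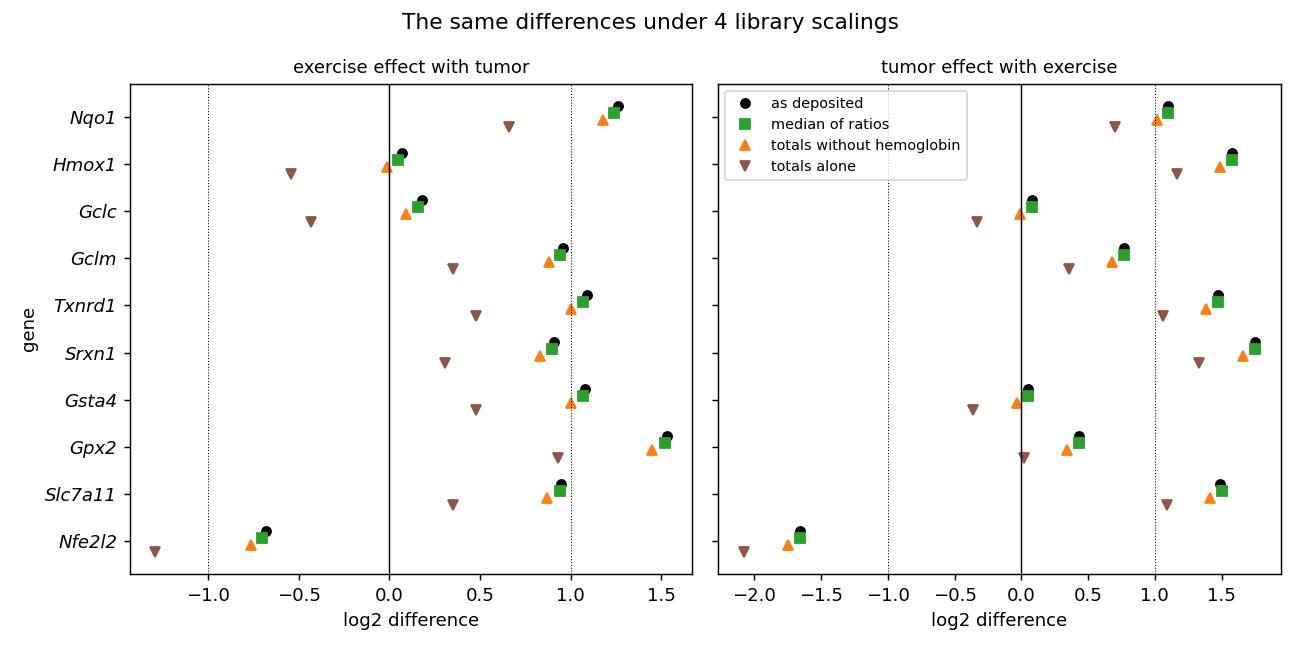
Log2 difference (x axis) of each gene (y axis) in the 2 comparisons that involve E(+)T(+), under the deposited scaling, median-of-ratios size factors, library totals without the hemoglobin genes and library totals alone, with dotted lines at 2-fold. Totals alone move every gene to the left, as they move the median of all genes to -0.59 and -0.41 in the panels on the left and right.

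The exercise effect with tumor was set against that without it, gene by gene. The difference of these 2 effects equals that of the 2 tumor effects, and its approximate 95% interval is from the reads. It was positive for Nqo1 at 1.58 (0.79 to 2.36), Gpx2 at 1.07 (0.64 to 1.50), Gsta4 at 1.03 (0.79 to 1.28), Txnrd1 at 0.89 (0.65 to 1.13), Gclm at 0.59 (0.25 to 0.93) and Srxn1 at 0.41 (0.14 to 0.69). In these genes E(+)T(+) lay above the sum of the separate effects in the deposited values. With library totals alone Srxn1 turned to -0.11 and Gclm came to 0.07, and Txnrd1, Gsta4, Gpx2 and Nqo1 stayed positive at 0.37 to 1.06. The share of all genes with a positive difference was not computed. A level that is low only in E(-)T(+) also gives a positive difference. Gsta4 was lowest there, and in E(+)T(+) it was only 0.1 above the normal control on the log2 scale. For Gpx2, also lowest there, the value was 0.89. The difference was negative for Hmox1 at -1.51 (-2.19 to -0.82), for Nfe2l2 at -0.72 (-0.91 to -0.54) and for Gclc at -0.24 (-0.41 to -0.06). For Slc7a11 it was -0.19 (-1.08 to 0.70), an interval that includes 0. With totals alone these were -2.02 for Hmox1, -1.25 for Nfe2l2, -0.76 for Gclc and -0.70 for Slc7a11.

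Ratios within a library do not depend on the scaling. Reads of Txnrd1 per read of Nfe2l2 were 0.217 in the normal control, 0.242 with exercise alone, 0.625 with tumor alone and 2.129 with both. For Srxn1 they were 0.129, 0.176, 0.623 and 1.879, and for Nqo1 0.031, 0.024, 0.043 and 0.168. Because Nfe2l2 was lowest in E(+)T(+), its own level enters each ratio: for Gsta4 the ratio was 0.368 in the normal control and 1.213 with both.

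Among the 10 genes the most similar profiles over the 4 libraries were those of Srxn1 and Slc7a11, with a Euclidean distance of 0.46 between their centred log2 values. Nqo1 and Gclm followed at 0.55, Gsta4 and Gpx2 at 0.56, and Txnrd1 and Srxn1 at 0.57. Hmox1 and Nfe2l2 were the farthest apart, at 3.83. Among the 11216 genes whose normalized counts averaged 50 or more, the nearest to Srxn1 were Gdpd2 (0.13) and Hk2 (0.14), and the nearest to Txnrd1 were Qsox1 (0.12) and Nt5c3 (0.15). Slc7a11 had Gpr157 (0.32) and Hk2 (0.38), and Hmox1 had Ccrn4l (0.52) and Fam46b (0.60). The nearest to Nqo1 were Ccdc78 (0.05) and S100a14 (0.06), to Gpx2 Meig1 (0.05) and Ckmt1 (0.13), to Gsta4 A930005H10Rik (0.07) and Bcr (0.08), and to Nfe2l2 Tmppe (0.06) and Bfar (0.07). Profiles of 4 points are easily matched: 756 genes lay within 0.5 of Gsta4, 250 of Nqo1, 45 of Srxn1, 14 of Slc7a11 and 0 of Hmox1.

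The mRNAs of proteins that control NRF2 did not share a direction. Keap1, whose protein delivers NRF2 for destruction, stayed within 2-fold in each comparison of the deposited values, at -0.16 and -0.42 for exercise without and with tumor and at 0.41 and 0.16 for tumor without and with exercise. With totals alone it was lower by more than 2-fold in the exercise effect with tumor, at -1.02, and at -0.26 in the tumor effect with exercise. Cul3, the scaffold of the ligase, was higher in E(-)T(+) than in E(-)T(-) by 1.65 on the log2 scale, and its exercise effect with tumor was -1.30. Bach1, the repressor of Hmox1, was within 2-fold in both comparisons without E(+)T(+), at -0.17 and -0.35, and higher in E(+)T(+) by 1.77 in the exercise effect with tumor and by 1.60 in the tumor effect with exercise. Maff, a small MAF protein, was higher by 2-fold or more in all 4 comparisons, at 1.38 and 2.53 for exercise without and with tumor and 1.69 and 2.83 for tumor without and with exercise. The related Mafk differed by 1.75 in the exercise effect with tumor, and Mafg by 1.38 in the tumor effect without exercise, in which Bach2, a relative of Bach1, was at -1.89 and Nfe2l1, a relative of NRF2, at -1.64. Nfe2, the relative of NRF2 found in blood-forming cells, was at 2.91 in the exercise effect with tumor and 1.90 in the tumor effect with exercise. Of the 14 regulators and partners, 2 were higher and 0 lower in the exercise effect without tumor, where 5.28% of all filtered genes were higher and 4.7% lower. The counts were 3 and 2 in the tumor effect without exercise (20.6% and 25.7% of all filtered genes), 5 and 2 in the exercise effect with tumor (24.3% and 17.7%), and 3 and 0 in the tumor effect with exercise (14.9% and 13.0%). With totals alone, the exercise effect with tumor had 4 higher and 4 lower, against 16.4% and 35.4% of all genes. Nothing particular to the list is read from these counts.

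A further 27 known NRF2 targets did not follow one course. In the tumor effect without exercise 3 were higher and 7 lower by 2-fold or more, with Gsta3 at -3.38, the catalase gene Cat at -3.26, Gstm1 at -2.52 and Prdx6 at -2.13, and with the aldo-keto reductase Akr1b8 at 2.25. All filtered genes had 20.6% higher and 25.7% lower there, and with totals alone 5 genes of the list were higher and 7 lower, against 22.8% and 23.9% of all genes. In the exercise effect with tumor 10 were higher and 2 lower, with Gsta3 at 3.26, the carbonyl reductase Cbr3 at 2.95, Cat at 2.72 and Osgin1 at 2.57, and with Ugdh at -2.46, against 24.3% of all filtered genes higher and 17.7% lower. With totals alone this became 7 higher and 6 lower, against 16.4% and 35.4% of all genes. The tumor effect with exercise had 8 higher and 0 lower, against 14.9% of all filtered genes higher and 13.0% lower. Among the higher were Osgin1 at 2.26, the biliverdin reductase Blvrb at 1.58, Akr1b8 at 1.54, the exporter Abcc4 at 1.53 and G6pdx, which supplies NADPH, at 1.18. With totals alone the counts became 4 higher and 2 lower, against 9.5% and 24.2% of all genes. Exercise without tumor left 26 of the 27 within 2-fold, and Gss, the second enzyme of glutathione synthesis, was at 1.03, where 5.28% of all filtered genes were higher and 4.7% lower. Gss fell short of 2-fold, at 0.94, under totals alone and under totals without hemoglobin. The median in the exercise effect with tumor was 0.39, and it turned to -0.22 under totals alone, as that in the tumor effect with exercise turned from 0.15 to -0.26.

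Other redox enzymes were also counted. Of 21 genes of the glutathione and thioredoxin systems, 7 were higher and 1 lower in the exercise effect with tumor, against 24.3% and 17.7% of all filtered genes, and 9 and 1 in the tumor effect with exercise, against 14.9% and 13.0%. With totals alone the former became 4 higher and 5 lower, against 16.4% and 35.4% of all genes. The 1 lower gene in the exercise effect with tumor was the peroxiredoxin gene Prdx4, at -1.16. In the tumor effect without exercise 5 of the 21 were higher and 3 lower, against 20.6% and 25.7% of all filtered genes. The plasma peroxidase Gpx3 was at -1.99 there and at 2.74 in the exercise effect with tumor. The methionine sulfoxide reductase Msrb1 was at 2.06 in the exercise effect with tumor and 1.93 in the tumor effect with exercise. The mitochondrial reductase Txnrd2 was at 1.50 in the exercise effect with tumor and 1.52 in the tumor effect with exercise. Txnrd1 was at 1.09 and 1.47 in the same order. Exercise alone and tumor alone gave -0.80 and -0.78 for Txnrd2, against 0.20 and 0.58 for Txnrd1. Genes that make or remove superoxide and peroxide were higher for 7 of the 10 that passed the filter in the exercise effect with tumor, where 24.3% of all filtered genes were higher, with a median of 1.73 that stayed positive, at 1.12, under totals alone. They included subunits of the NADPH oxidase of phagocytes, Cybb at 2.03, Ncf4 at 1.97 and Ncf1 at 1.60, and the extracellular superoxide dismutase Sod3 at 2.55. In the tumor effect without exercise 1 of these 10 was higher and 2 were lower, Sod3 at -2.89 and Cybb at -1.13, with a median of -0.38, against 20.6% and 25.7% of all filtered genes.

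Hmox1 itself had its largest difference, 3.08, in the tumor effect without exercise. Of 10 other genes of heme and iron handling, 4 were higher and 3 lower in that comparison, against 20.6% and 25.7% of all filtered genes. The hemoglobin scavenger receptor Cd163, a macrophage gene, was at 3.27 there, the haptoglobin gene Hp, whose protein scavenges hemoglobin, at -1.59 and the heme transporter Slc48a1 at -1.07. In the exercise effect with tumor 5 were higher and 1 lower (24.3% and 17.7% of all filtered genes), with a median of 1.02, among them Hp at 2.90, Lcn2, which binds siderophores, at 2.21 and the iron exporter Slc40a1 at 1.76, and with Cd163 at -1.68. With totals alone these became 3 higher and 1 lower, against 16.4% and 35.4% of all genes. The tumor effect with exercise had 5 higher and 0 lower (14.9% and 13.0% of all filtered genes), with Lcn2 at 3.71 and Slc11a1 at 2.52.

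Slc7a11 is also a target of ATF4, the factor of the amino acid response, and the 16 other genes of that response were therefore counted. In the exercise effect without tumor, in which Slc7a11 was at 1.14, 7 were higher and 0 lower, with Mthfd2 at 1.57, Ddit4 at 1.54, Atf3 at 1.48, Atf4 itself at 1.11 and Ddit3 at 1.02, against 5.28% of all filtered genes higher. In the tumor effect without exercise 10 were higher and 0 lower, with the amino acid carrier Slc7a5 at 4.69 and the serine synthesis genes Psat1 at 4.00 and Phgdh at 3.36, against 20.6% higher. In the exercise effect with tumor 2 were higher and 5 lower, against 24.3% of all filtered genes higher and 17.7% lower. Atf3 was at 3.58 there, Slc7a5 at -2.44 and Slc7a11 at 0.95. With totals alone the counts became 1 higher and 7 lower, against 16.4% and 35.4% of all genes. The tumor effect with exercise had 6 higher and 2 lower, against 14.9% and 13.0%. Among the values named for these lists, totals alone also took Txnrd2 (0.91) and Ncf1 (0.99) in the exercise effect with tumor, G6pdx (0.77) in the tumor effect with exercise, Slc48a1 (-0.96) in the tumor effect without exercise and Ddit3 (0.94) in the exercise effect without tumor to under 2-fold.

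**Figure D4:**
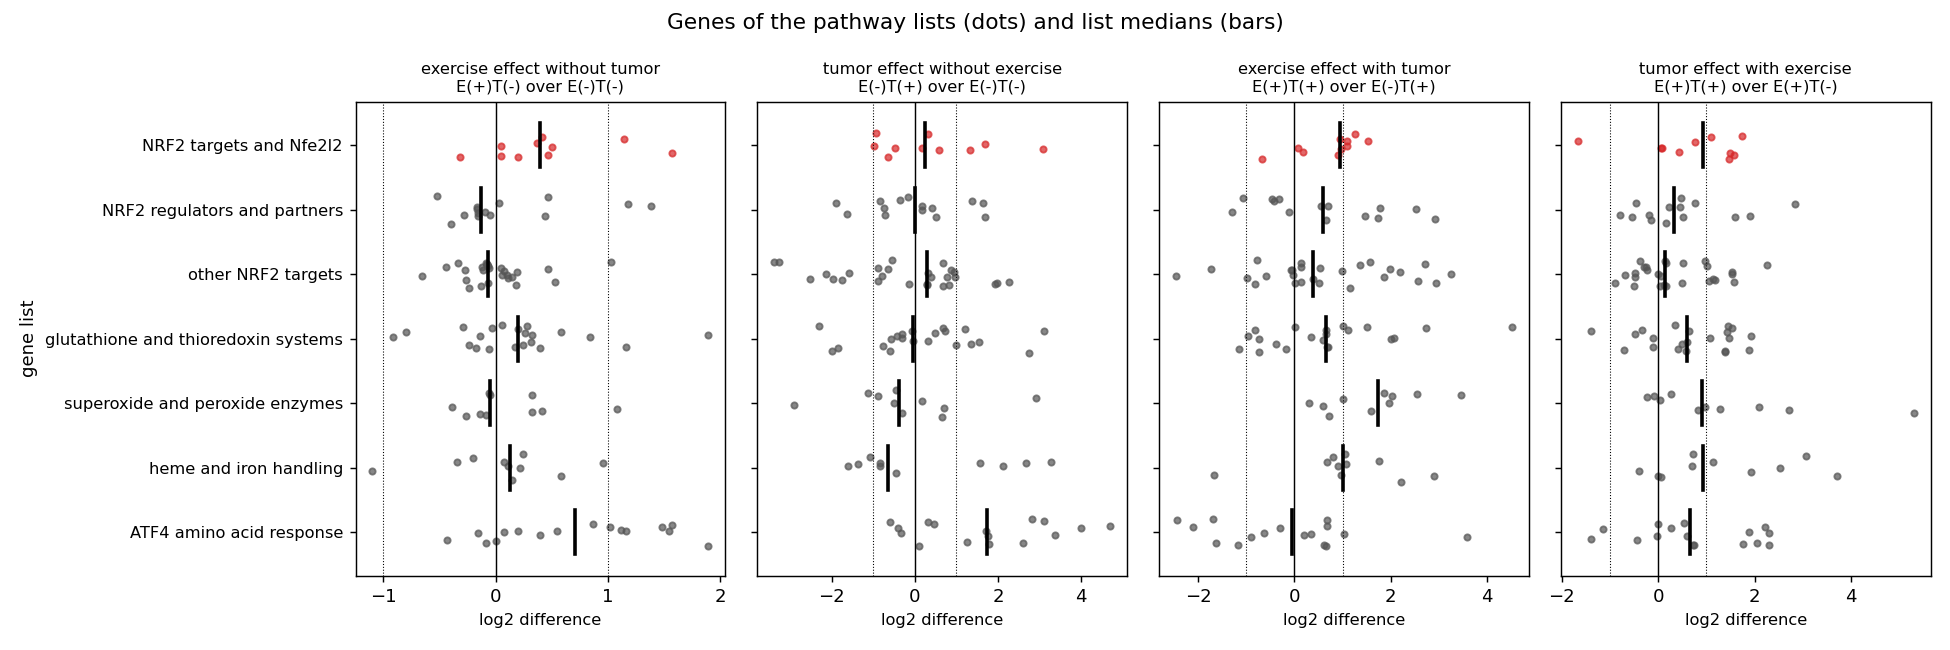
Log2 difference (x axis, a range of its own in each panel) of the genes of 7 lists (y axis) that passed the filter, 1 dot per gene, with black bars at list medians, dotted lines at 2-fold and vertical scatter for legibility only. The 10 genes described here, in red, have medians of 0.39, 0.25, 0.96 and 0.93, and the ATF4 list has its highest median, 1.73, in the tumor effect without exercise.

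Markers of other cells moved with the same libraries. In E(+)T(+), where 9 of the 10 genes were highest, 11 of 13 neutrophil markers were highest too, against 22.3% of all filtered genes. The summed level of these 13 was 210694.9 normalized counts there, against 4111.3 to 12521.2 in the other libraries. In that sum S100a8 held 90334.2 and S100a9 88597.8. The neutrophil genes S100a8 and S100a9 were at 4.53 and 4.40 in the exercise effect with tumor and at 1.65 and 1.61 in that without tumor, and the marker Elane had 0 reads in E(-)T(-) and E(+)T(-). All 15 erythroid markers that passed the filter were highest in E(+)T(+), against 22.3% of all filtered genes. The 16 found summed to 4931819.5 there, against 146972.6 to 1668038.9 elsewhere. The hemoglobin gene Hba-a1 alone held 2669243.4 of the sum in E(+)T(+). Cell division genes were highest in E(-)T(+) for 16 of 16, where 35.5% of all filtered genes were highest, with a summed level of 14567.0 there, 5166.8 with both factors, 1528.5 with exercise alone and 1111.3 in the normal control. The part of these cells in the values of the 10 genes was not tested.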

How the data were processed

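RNA of 4 mouse lung samples was measured, 1 library in each of 4 groups taken from the labels. The authors prepared QuantSeq 3′ mRNA libraries, aligned single-end reads with Bowtie2, counted them with bedtools coverage and normalized with the quantile method of edgeR. The submitters' processing notes name mm10. Annotation, strand and tool versions were not given in the sources used here. The deposited log2 values are log2(normalized read count + 1) at 3 decimals, so that differences understate the change of low genes. Whole reads were recovered by inverting this negative binomial quantile adjustment (dispersion 0.372). The fit returned 100% of the values within 0.001, and 94.6% were resolved to 1 read. The scaling factors in the files equalled TMM factors of the recovered reads to within 0.001. With 3 reads as the floor, the depth can show 0.224 to 0.321 CPM.

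Differences were taken between deposited log2 values and called at 2-fold (log2 of 1) among 15164 rows with a mean normalized count of at least 4. With 1 library per group no model was fitted. Intervals are 95% exact (Poisson for reads, Clopper-Pearson for read ratios) and cover counting error alone, since PCR copies are not independent molecules. Interval code and read recovery were tested on simulated data. Alternatives were pseudocounts of 0.5 and 4, no filter, a filter at 100, library totals, totals without hemoglobin genes and median-of-ratios factors. A subtraction of E(-)T(+) reads from E(+)T(-) and plain scaling of recovered reads were added after seeing the data, as were the count of genes highest in E(+)T(+) and the differences between the exercise effects, leads of E(+)T(+) and named pathway genes under other scalings.

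The 10 genes and all lists were chosen with earlier results of these data known. All 10 genes are described. Of other pathway lists, genes past 2-fold with a mean of at least 50 could be named, up to the 5 largest per list and comparison, with Keap1 and Bach1 always, and of marker lists up to 3 defining genes. Elane was named after its values were seen. The values of 1 gene that this rule names are not reported here. For each of the 10 genes past 2-fold in any comparison, the 2 nearest profiles are named. Genes were placed with GENCODE M21 (mm10). Analyses used Python 3.11.15, numpy 2.4.6, pandas 2.3.3, scipy 1.17.1 and matplotlib 3.10.9.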

Additional observations from a re-analysis of the deposited data

Results flagged for a closer look

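In 4 genes an effect had opposite signs in the 2 settings in which it was measured. With 1 library per group the difference was not tested in any of them. For Nqo1 the exercise effect was -0.32 without tumor and 1.26 with it, a difference of 1.58, and the tumor effect was -0.47 without exercise and 1.10 with it, which is the same difference of 1.58. The intervals of the negative values include 0. For Gsta4 the tumor effect was -0.98 without exercise and 0.05 with it, a difference of 1.03. The latter turned to -0.36 with library totals alone, so the signs were then the same. For Gpx2 the tumor effect was -0.64 without exercise and 0.43 with it, a difference of 1.07, and the latter was 0.02 with library totals alone. For Nfe2l2 the exercise effect was 0.05 without tumor and -0.68 with it, a difference of -0.72. The former turned to -0.04 under both scalings by totals.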

How the results depend on the processing

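The medians of the 10 genes stayed positive under the alternatives run, but in the exercise effect with tumor the 4 genes past 2-fold, still above 0, fell short of it with library totals alone, and Nfe2l2, already lower, passed it at -1.29. In the exercise effect without tumor the count went from 2 to 1 when only genes averaging 100 normalized counts or more were kept, because Slc7a11 lies under that level. In the tumor effect without exercise it went from 3 to 5 with totals without the hemoglobin genes. These were 3 higher and 2 lower, against 18.8% and 27.5% of all genes. In the exercise effect with tumor the count went from 4 to 1 (0 higher, 1 lower) with library totals alone, and the median from 0.96 to 0.35. For the tumor effect with exercise the median went from 0.93 to 0.60 at a mean of at least 100 and to 0.53 with totals alone, and the higher genes from 5 to 3 and to 4. With totals alone, the share of called genes that were higher was 31.6% in the exercise effect with tumor and 28.2% in the tumor effect with exercise, against 57.8% and 53.5% with the deposited values. Pseudocounts, the absence of a filter, median-of-ratios factors and the subtraction and plain scaling added after seeing the data moved none of these counts or medians beyond the limits used. At the strict filter fewer genes of the whole table passed 2-fold too, 200 against 1513 in the exercise effect without tumor, 3601 against 7011, 3171 against 6371, and 1686 against 4223 in the others. No paired analysis was possible because each group had 1 library, and for the same reason no library could be left out. Depth limits Nqo1 and Slc7a11 most, with under 100 reads in each library, and then Hmox1 in the libraries without tumor and Gpx2 in E(-)T(+).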
